A study of Oryctolagus cuniculus with 3 samples.

Results

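Aminoacyl-tRNA synthetases, the enzymes that join each amino acid to its transfer RNA, were described in rabbit (Oryctolagus cuniculus) cumulus-oocyte complexes, the oocyte with the follicle cells around it. A gene was taken as a synthetase when its symbol in the deposited gene table was that of such an enzyme, so the choice used names and no measured value. The rule found 34 genes among 39681 loci, 18 of them cytosolic and 16 mitochondrial, with the dual-compartment enzymes GARS and KARS counted as cytosolic. Of the 37 enzymes looked for, 3 were not found by name, CARS, FARSA and VARS2. The rule also found 5 further rows that carry a synthetase name but no RefSeq transcript; they are described apart.

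Per the labels, the LAC library came from complexes of animals housed at 10 ppm ammonia, the HAC library from 30 ppm, and the control library, CG, from under 3 ppm. The animals were 150 female IRA rabbits in all, 35 days old when exposure began, and exposure lasted 4 weeks. Each group is 1 library of total RNA, the labels do not say how many animals it pools, and no difference has a replicate check. All p-values are therefore left out, and a difference is described by its size, where the bound is 1 or more on the log2 scale with at least 10 estimated counts in the higher library.

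The gene table deposited for HAC has the same 39681 rows as that of LAC, so gene values exist here for LAC and CG and none are given for HAC. Which library the shared table belongs to is itself uncertain. Its highest FPKM, 39491.82, is the figure in the summary block of HAC, whereas the block of LAC gives 86393.85. Valid reads are exchanged too: LAC has 72141648 in the summary block and 72520954 in the mapping block, and HAC the reverse. The header of the table names LAC. Its gene counts lay within 5% of the long non-coding coverage named LAC at 97.3% of loci with a single transcript, against 4.23% with that named HAC. This match ties the table to those columns and cannot show which animals either came from. The names LAC and HAC are kept below as the table and the long non-coding columns give them, and the doubt holds for the non-coding values too.

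The estimated counts summed to 68523767 in LAC and 78461882 in CG, and 1 count stands for about 0.5 of a read. Markers of the labelled cells were present in both libraries: 22 of 22 detected oocyte markers were lower in LAC by 1 or more, with a summed level of 1156 CPM (counts scaled to library size) in LAC against 5811 CPM in CG. The 14 detected granulosa and cumulus markers summed to 14021 CPM in LAC and 14354 CPM in CG, with 0 higher and 1 lower by that bound. Stromal markers summed to 151 CPM in LAC and 46.0 CPM in CG, with 6 of 9 higher and 1 lower. Leukocyte markers (7 detected) summed to 28.7 CPM in LAC and 67.2 CPM in CG, with MSR1 and MS4A1 lower by 1 or more, MRC1 higher, and 5 of 7 above 0. Endothelial markers (4 detected) summed to 7.60 CPM in LAC and 49.7 CPM in CG, of which TEK held 4.23 CPM in LAC and 46.7 CPM in CG; TEK was lower by 1 or more, and 2 of 4 were above 0. The markers listed at 0 in both libraries were SOHLH1 (oocyte), DPT (stroma) and CD3E (T lymphocyte). In a complex of several cell types, fewer cells of a type and less RNA per cell cannot be told apart, and the part of the oocyte marker difference in the values below was not tested.

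As background, animal cells keep separate sets of synthetases for the cytosol and for mitochondria. Both are encoded in the nucleus, and the mitochondrial set, mostly named with a final 2, is imported to serve translation of the few proteins that mitochondrial DNA encodes. Several cytosolic enzymes sit together on the scaffold proteins AIMP1, AIMP2 and EEF1E1 in the multisynthetase complex. In human and mouse cells, amino acid shortage and endoplasmic reticulum stress raise the transcription of many cytosolic synthetases through the factor ATF4. Growing oocytes translate heavily and store messenger RNA and ribosomes for the embryo.

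Transcripts of all 34 synthetases were detected (averaging 0.5 CPM or more), from CARS2 at 1.27 CPM in LAC and 1.07 CPM in CG to EPRS at 258 CPM in LAC and 325 CPM in CG. Relative to CG, LAC had 3 synthetases lower by 1 or more (8.82% of 34) and 0 higher. Among the 13021 detected protein-coding genes, 12.7% were lower by this bound and 2.17% higher, so the share of synthetases was not above that of coding genes in either direction. The median difference over the 34 genes was -0.21, beside -0.15 over coding genes. Here and below a difference is log2(CPM + 1) in LAC minus that in CG. Below 0 lay 23 of the 34 synthetases and 8179 of the 13021 coding genes. In summed level, synthetases held 1842 CPM in LAC and 2405 CPM in CG, which is 0.184% of the scaled library size of LAC and 0.241% of that of CG. All detected coding genes together were also lower in LAC, at 66.4% in LAC and 74.7% in CG on the same scale. Spliced reads were 16.23% in the mapping block of LAC, 22.01% in that of CG and 19.89% in that of HAC. The part of this library difference in the values here was not tested.

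**Figure D1:**
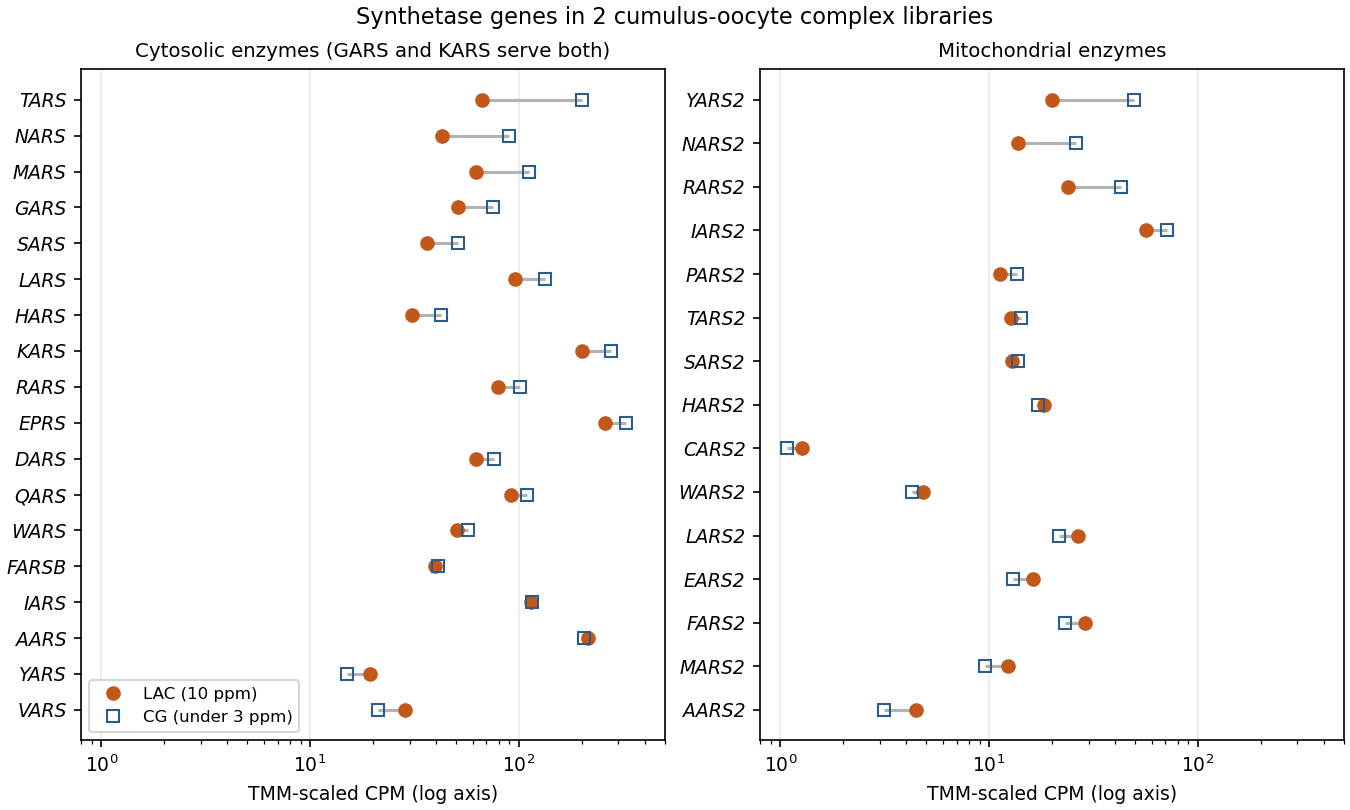
Level of 33 synthetase genes in LAC and in CG, in CPM on a log axis, with cytosolic and mitochondrial enzymes in separate panels; each point is 1 library. LAC lies below CG for 15 of 18 cytosolic genes and for 7 of the 15 mitochondrial genes drawn; with scaling on coding genes alone FARSB, IARS, WARS, SARS2 and TARS2 leave those counts.

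The 3 synthetases past the bound were TARS, YARS2 and NARS. TARS, the cytosolic enzyme that charges threonine tRNA (NC_013679.1:55192428-55219582, plus strand, build OryCun2.0), had 67.0 CPM in LAC and 201 CPM in CG, from 4548 estimated counts in LAC and 15946 in CG. Its CPM ratio of LAC to CG was 0.333, with an exact binomial 95% interval of 0.317 to 0.348; such intervals cover counting error only. YARS2, the mitochondrial tyrosine enzyme (NC_013676.1:8573696-8596085, plus strand), had 20.1 CPM in LAC and 49.7 CPM in CG, a ratio of 0.405 (0.370 to 0.441). NARS, the cytosolic asparagine enzyme (NC_013677.1:98139111-98154771, minus strand), had 42.9 CPM in LAC and 89.6 CPM in CG, a ratio of 0.479 (0.451 to 0.510). Their differences were -1.57 for TARS, -1.26 for YARS2 and -1.04 for NARS. NARS lay just inside the bound, but outside it at -0.87 when the libraries were scaled on coding genes alone and at -0.98 with a pseudocount of 5 CPM. Just outside the bound stood NARS2, the mitochondrial asparagine enzyme, at 13.7 CPM in LAC and 26.2 CPM in CG (-0.89).

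**Figure D2:**
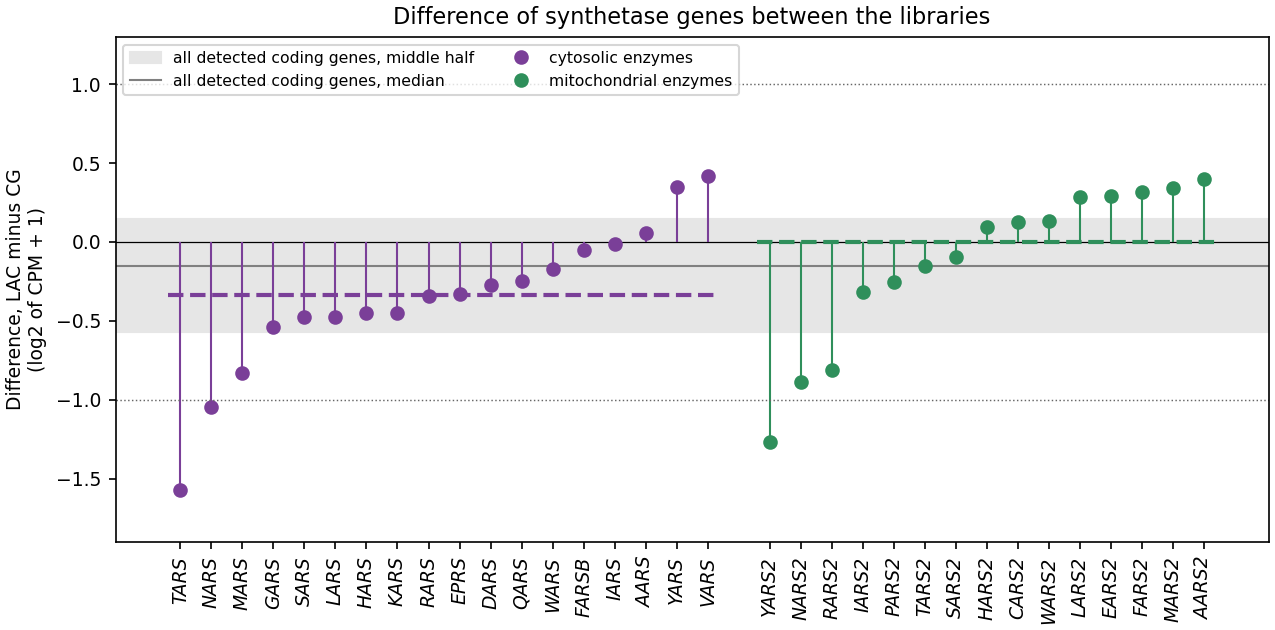
Difference of log2(CPM + 1), LAC minus CG, for 33 synthetase genes, ordered within the cytosolic and the mitochondrial enzymes; dotted lines mark 1 and -1, dashed lines the medians of all 18 cytosolic and all 16 mitochondrial enzymes, and the band the quartiles of coding genes. TARS, NARS and YARS2 are the genes below -1, and no gene is above 1.

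Among the 18 cytosolic enzymes the median difference was -0.33, with 15 below 0 and 13 below the median of coding genes; FARSB, IARS and WARS came out above 0 with scaling on coding genes alone. After TARS and NARS, the methionine enzyme MARS was the lowest of this set, with 62.3 CPM in LAC and 111 CPM in CG (-0.83). MARS charges both the initiator and the elongator methionine tRNA. GARS, SARS, LARS, HARS and KARS followed, with differences between -0.54 and -0.45. EPRS, which charges glutamate and proline tRNAs with a single fused protein, had 258 CPM in LAC and 325 CPM in CG (-0.33). KARS, the lysine enzyme of both compartments, had 201 CPM in LAC and 275 CPM in CG (-0.45). The 3 cytosolic enzymes above 0 were the valine, tyrosine and alanine enzymes. VARS had 28.6 CPM in LAC and 21.2 CPM in CG (0.42), YARS 19.4 CPM in LAC and 15.0 CPM in CG (0.35), and AARS 214 CPM in LAC and 205 CPM in CG (0.06). The isoleucine enzyme IARS was level, at 114 CPM in LAC and 115 CPM in CG (-0.01). In sum, cytosolic enzymes held 1547 CPM in LAC and 2046 CPM in CG.

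The 8 synthetases of the multisynthetase complex (MARS, LARS, KARS, RARS, EPRS, DARS, QARS and IARS) were all below 0, except IARS with scaling on coding genes alone. They ranged from -0.83 to -0.01 with a median of -0.33, and 0 of them passed the bound. Below the median of coding genes were 7 of the 8, where 8179 of 13021 coding genes were themselves below 0. The 10 cytosolic enzymes outside the complex had a median of -0.31 and a wider spread, from TARS at -1.57 to VARS at 0.42, with 2 lower by 1 or more. The 11 cytosolic enzymes known as ATF4 targets in human and mouse (AARS, EPRS, GARS, IARS, LARS, MARS, NARS, SARS, TARS, WARS and YARS) had a median of -0.48, with 9 below 0. The other 7 had a median of -0.28, with 6 below 0. Below the median of coding genes were 8 of the 11 and 5 of the 7. By the 2 structural classes of synthetase, the cytosolic median was -0.45 over 9 class II genes and -0.21 over 8 class I genes. EPRS, which holds a domain of each class, was left out of that split.

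The 16 mitochondrial enzymes divided evenly, 8 above 0 and 8 below (SARS2 and TARS2 moved above 0 with scaling on coding genes alone), with a median of 0.00; 9 lay above the median of coding genes. Besides YARS2 and NARS2, the arginine enzyme RARS2 was the lowest, with 23.9 CPM in LAC and 42.7 CPM in CG (-0.81). IARS2, the isoleucine enzyme, had 56.7 CPM in LAC and 71.0 CPM in CG (-0.32). At the upper end AARS2, the alanine enzyme, had 4.46 CPM in LAC and 3.14 CPM in CG (0.40), with a ratio of 1.42 (1.12 to 1.83). MARS2, the methionine enzyme, had 12.4 CPM in LAC and 9.57 CPM in CG (0.34), and FARS2, the phenylalanine enzyme, 29.0 CPM in LAC and 23.1 CPM in CG (0.32). EARS2 and LARS2, for glutamate and leucine, both differed by 0.29. The summed level of the mitochondrial enzymes was 295 CPM in LAC and 359 CPM in CG. The median of this set was 0.15 with scaling on coding genes alone and -0.16 when genes under a mean of 5 CPM were left out.

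Where both compartments have an enzyme for an amino acid, the cytosolic and mitochondrial differences could be set side by side within the same pair of libraries. In 12 of 15 such pairs the cytosolic enzyme had the lower difference, and in 3 (isoleucine, arginine and tyrosine) the higher one; the glutamate and proline pairs share EPRS. The median of cytosolic minus mitochondrial was -0.34. Threonine stood at the lower end, where TARS differed by -1.57 and TARS2 by -0.16, with TARS2 at 12.7 CPM in LAC and 14.3 CPM in CG. Tyrosine stood at the other end in the opposite order, YARS differing by 0.35 and YARS2 by -1.26. Methionine was the third pair set apart by more than 1, at -0.83 for MARS and 0.34 for MARS2. For asparagine both enzymes were low in LAC, NARS at -1.04 and NARS2 at -0.89. In the proline pair EPRS stood at -0.33 and PARS2 at -0.25.

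**Figure D3:**
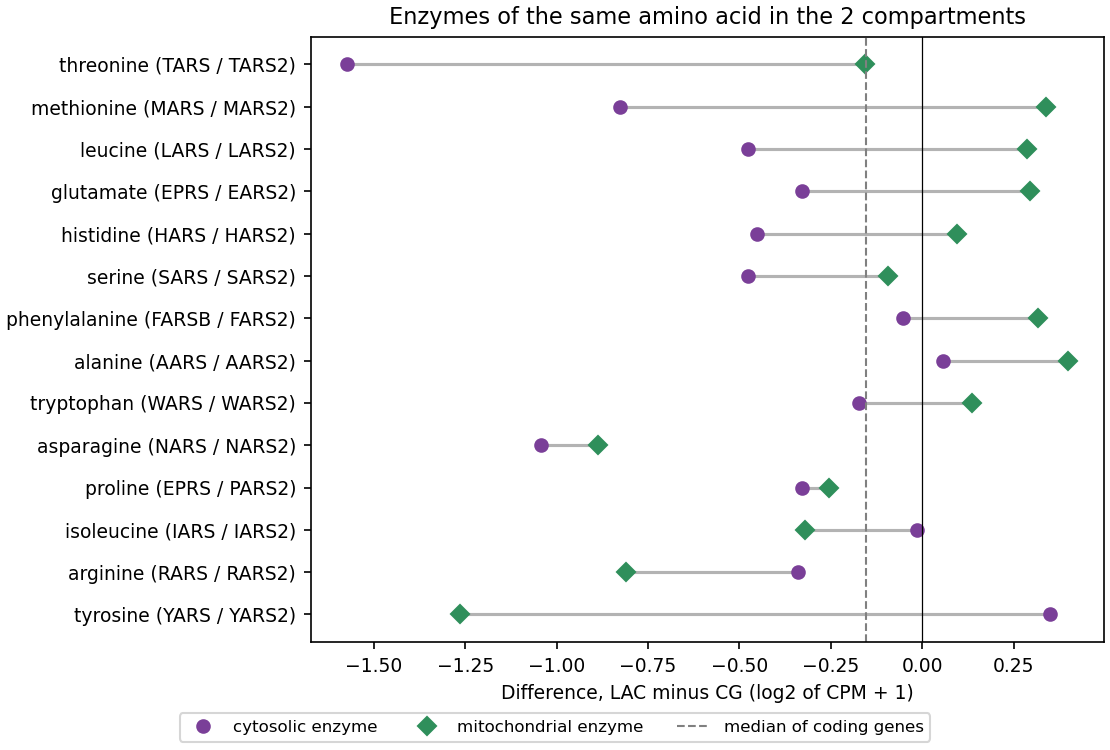
Difference of log2(CPM + 1), LAC minus CG, of the cytosolic enzyme (circles) and the mitochondrial enzyme (diamonds) of 14 amino acids; the dashed line is the median of coding genes. The circle lies left of the diamond in 11 rows, and the threonine, methionine and tyrosine rows span more than 1.

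HARS and HARS2, the cytosolic and mitochondrial histidine enzymes, lie head to head 85 bases apart on NC_013671.1. HARS had 30.7 CPM in LAC and 42.4 CPM in CG (-0.45), whereas HARS2 had 18.4 CPM in LAC and 17.2 CPM in CG (0.09). IARS2 and EPRS lie 39136 bases apart on NC_013684.1 and are not adjacent, since the non-coding transcript XR_001794901.1 lies between them. IARS2 differed by -0.32 and EPRS by -0.33.

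Outside the naming rule, 15 loci were annotated in the gene table as a tRNA ligase, 4 of them with no count in either library. Near-identical copies can share reads, so these loci limit what a single row says. TARSL2, annotated as a probable second cytosolic threonine tRNA ligase, had 12.6 CPM in LAC and 31.0 CPM in CG (-1.23), a lower value in LAC as for TARS. LOC103352006, a pseudogene in RefSeq and annotated as a cytosolic asparagine enzyme, had 1.19 CPM in LAC and 3.31 CPM in CG (-0.97). Other such loci lay above 0. LOC103350535, annotated as a cytosolic alanine enzyme, had 34.5 CPM in LAC and 30.2 CPM in CG (0.18). LOC103347359, annotated as a cytosolic cysteine enzyme, had 6.66 CPM in LAC and 6.34 CPM in CG (0.06). Of the enzymes missing by name, CARS and VARS2 had a locus here and FARSA had none. A locus that merges the gene RefSeq calls CARS1 with a TNFRSF10A-like gene had 21.6 CPM in LAC and 18.4 CPM in CG (0.22). The locus that RefSeq calls VARS2 had 41.9 CPM in LAC and 40.4 CPM in CG (0.05). A second locus of CARS2, LOC103347259, had 5.85 CPM in LAC and 3.62 CPM in CG (0.57), more reads than the row that carries the name. With the CARS1 and VARS2 loci added, chosen after their values were seen, the cytosolic difference was the higher one in 5 of 17 pairs, or in 4 of 17 when LOC103347259 stood for CARS2.

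The 5 assembled rows that carry a synthetase name lay inside a member or just beyond its end. An opposite-strand transcript inside DARS, which encodes the aspartate enzyme, had 6.66 CPM in LAC and 2.36 CPM in CG (1.19), a ratio of 2.82 (2.19 to 3.60), while DARS itself had 62.6 CPM in LAC and 76.0 CPM in CG. Among 9323 detected unannotated loci, 9.76% were higher by 1 or more in LAC and 8.06% lower. The median difference of these loci was 0.33, with 6411 above 0, beside -0.15 over coding genes. A value above 0 was thus common among such rows. A row 1070 bases beyond the 3′ end of NARS2 had 2.08 CPM in LAC and 0.80 CPM in CG (0.78), opposite in sign to NARS2. The rows beyond FARSB, beyond EARS2 and inside GARS differed by 0.50, 0.02 and -0.16. No source used here states whether the authors' counting used strand, so reads of a gene and of an overlapping opposite-strand transcript may not be separable.

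Genes that work beside the synthetases were described from 6 lists, with 131 detected genes of which 9 (6.87%) were lower by 1 or more in LAC and 1 (0.763%) higher. Both shares were below those of coding genes, 12.7% lower and 2.17% higher, so the counts below are given as values and not as a result about the lists. The scaffold of the multisynthetase complex had 0 of 3 past the bound: EEF1E1 had 43.1 CPM in LAC and 78.1 CPM in CG (-0.84), AIMP2 15.1 CPM in LAC and 21.8 CPM in CG (-0.51), and AIMP1 60.2 CPM in LAC and 49.5 CPM in CG (0.28). Of 11 genes accessory to tRNA charging, 2 were lower and 0 higher, with a median of -0.20. Besides TARSL2 the lower gene was QRSL1, a subunit of the mitochondrial amidotransferase that makes glutaminyl-tRNA from the glutamyl-tRNA charged by EARS2. QRSL1 had 13.4 CPM in LAC and 32.5 CPM in CG (-1.22), while its partner subunits GATB and GATC differed by -0.20 and 0.22. XPOT, which exports tRNA from the nucleus, had 197 CPM in LAC and 286 CPM in CG (-0.54).

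Of 37 genes for tRNA maturation and modification, 2 were lower, 1 was higher and the median was -0.31. RPP38, a protein of ribonuclease P, had 2.40 CPM in LAC and 7.12 CPM in CG (-1.26), and CLP1, a kinase of tRNA splicing, 10.9 CPM in LAC and 24.7 CPM in CG (-1.11). MTERF4, a mitochondrial protein that acts with a ribosomal RNA methyltransferase, was the gene higher in LAC, with 9.07 CPM in LAC and 3.65 CPM in CG (1.11). RTCB, the tRNA ligase of splicing, had 83.5 CPM in LAC and 97.9 CPM in CG, and NSUN2, a tRNA methyltransferase, 52.2 CPM in LAC and 69.2 CPM in CG. Among 37 translation factors, 1 was lower, 0 were higher and the median was -0.12. The lower factor was EIF5B, which joins the ribosomal subunits, with 54.4 CPM in LAC and 129 CPM in CG (-1.23). EEF1A1, which delivers charged tRNA to the ribosome, was close between libraries at 6642 CPM in LAC and 6908 CPM in CG (-0.06), and EIF4G2 had 1473 CPM in LAC and 1498 CPM in CG (-0.02). Nuclear tRNA genes gave little to count: 145 of 491 rows had any count and 18 had at least 10, so tRNA levels are not described.

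In the ATF4 pathway list, 2 of 22 detected genes were lower, 0 were higher and the median was -0.12. ATF4 had 2.77 CPM in LAC and 18.7 CPM in CG (-2.39), and CHAC1, a glutathione-degrading enzyme under its control in human and mouse, 2.00 CPM in LAC and 10.7 CPM in CG (-1.96). In the other direction ATF3, a stress-response factor, had 3.46 CPM in LAC and 1.44 CPM in CG (0.87), a ratio of 2.40 (1.75 to 3.37). PPP1R15A, which helps to remove phosphate from the initiation factor eIF2α, had 3.92 CPM in LAC and 7.21 CPM in CG (-0.74), and SLC3A2, a subunit of amino acid transporters, 29.1 CPM in LAC and 45.8 CPM in CG (-0.64). SLC38A2, a neutral amino acid transporter, had 226 CPM in LAC and 174 CPM in CG (0.38), and the lipoprotein receptor VLDLR 207 CPM in LAC and 229 CPM in CG (-0.15). Among 22 genes for amino acid and folate-linked synthesis the median was -0.49, with 2 lower and 0 higher. SHMT1, which converts serine to glycine, had 3.86 CPM in LAC and 30.7 CPM in CG (-2.71), and CTH, which makes cysteine from cystathionine, 1.80 CPM in LAC and 5.38 CPM in CG (-1.19). ASNS, which makes the asparagine used by NARS and is held in both of these lists, had 26.6 CPM in LAC and 48.3 CPM in CG (-0.84). ALDH18A1, which begins proline synthesis, had 158 CPM in LAC and 187 CPM in CG (-0.25), and GOT2, a mitochondrial aspartate aminotransferase, 114 CPM in LAC and 165 CPM in CG (-0.53).

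Ribosomal proteins gave a reference on the same scale for each compartment. The 66 detected cytosolic ribosomal proteins, which include copies with similar names, had a median of 0.08 with 1 higher (RPL27, 1.10) and 1 lower (RPL23, -1.01). The 68 detected mitochondrial ribosomal proteins had a median of -0.28, with 2 higher (2.94%) and 4 lower (5.88%). The share of the cytosolic set was 1.52% in each direction, and coding genes had 2.17% higher and 12.7% lower. The genes past the bound are therefore given as values and not as a result about either set. MRPS22 had 38.3 CPM in LAC and 187 CPM in CG (-2.26), and MRPL17 had 91.3 CPM in LAC and 29.4 CPM in CG (1.60). MRPL33 was the other higher gene (1.57), and MRPS10, MRPL39 and MRPS21 were the other lower genes (-1.17, -1.10 and -1.02). Thus the order of the medians was cytosolic below mitochondrial for the synthetases and mitochondrial below cytosolic for the ribosomal proteins, with no test of either order.

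**Figure D4:**
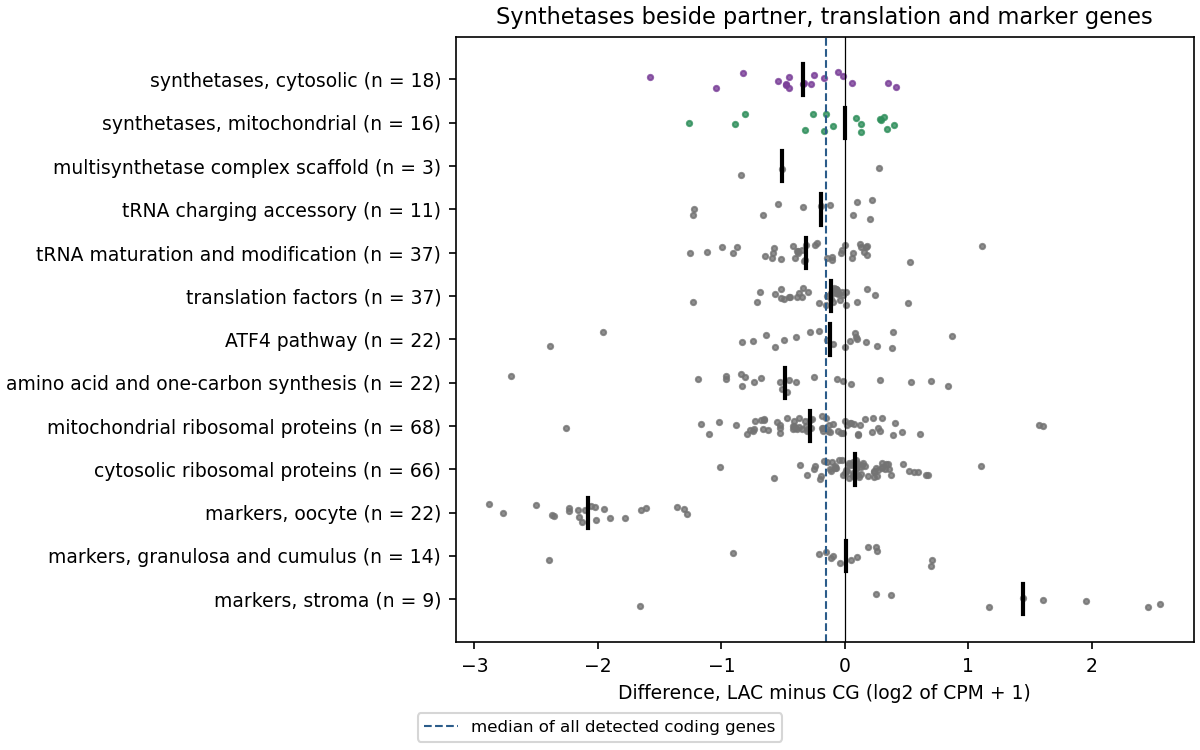
Difference of log2(CPM + 1), LAC minus CG, of every detected gene (points) in the synthetase sets, the partner and translation lists and 3 marker lists, with the median of each as a black bar and that of all coding genes as a dashed line. Oocyte markers have a median of -2.08, and the cytosolic synthetases one of -0.33.

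The long non-coding table has its own columns for all 3 libraries and so gives the values of HAC at these loci, in FPKM (fragments scaled to transcript length and library size) as deposited. It held 7 transcripts that carry the name of a synthetase or overlap one, at 6 genes. A difference here is of log2(FPKM + 1), for transcripts that reach 1 FPKM in either library compared. The median-of-ratios library factors of this table were 0.896 for CG, 1.22 for LAC and 0.940 for HAC. A typical transcript thus read higher in LAC, and the FPKM given here are not divided by these factors. A modest excess in LAC is therefore not particular to a transcript. Among all transcripts of the table that did so, 13.6% were higher and 12.4% lower by 1 or more in LAC against CG, 10.1% higher and 7.06% lower in HAC against CG, and 16.8% higher and 12.6% lower in HAC against LAC. Of the 7, 2 passed the bound in any of the 3 comparisons. XR_001795646.1, inside the FARS2 locus on its strand, measured 1.15 FPKM in CG, 2.54 FPKM in LAC and 3.42 FPKM in HAC, and differed by 1.04 between HAC and CG. MSTRG.6732.1, the opposite-strand transcript inside DARS, measured 0.76 FPKM in CG, 2.04 FPKM in LAC and 0.51 FPKM in HAC, so that HAC lay near CG and differed from LAC by -1.01.

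The non-coding isoform MSTRG.1105.6 of NARS2 measured 1.79 FPKM in CG, 0.43 FPKM in LAC and 1.62 FPKM in HAC, again with LAC apart from the other libraries. A transcript over RARS2 from the neighbouring SLC35A1 gene, MSTRG.11094.3, measured 2.07 FPKM in CG, 2.72 FPKM in LAC and 3.80 FPKM in HAC. The isoform MSTRG.20880.7 of FARS2 measured 1.24 FPKM in CG, 1.91 FPKM in LAC and 1.42 FPKM in HAC. The transcripts over SARS and MARS2 stayed below 1 FPKM in every library.

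Within 10 kb of a synthetase lay 11 more transcripts, a window chosen after the data were seen. MSTRG.9308.1 starts 75 bases from the 5′ end of NARS on the opposite strand, and it measured 2.22 FPKM in CG, 0.45 FPKM in LAC and 2.52 FPKM in HAC. Its difference was -1.15 for LAC against CG, the same direction as NARS, and 0.13 for HAC against CG. XR_001793681.1 lies likewise 83 bases from YARS2, and measured 1.05 FPKM in CG, 0.74 FPKM in LAC and 0.29 FPKM in HAC. XR_001794901.1 near IARS2 measured 0.33 FPKM in CG, was listed at 0 in LAC and measured 1.70 FPKM in HAC. These values are of non-coding transcripts and give no level of the synthetase messages at 30 ppm.

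**Figure D5:**
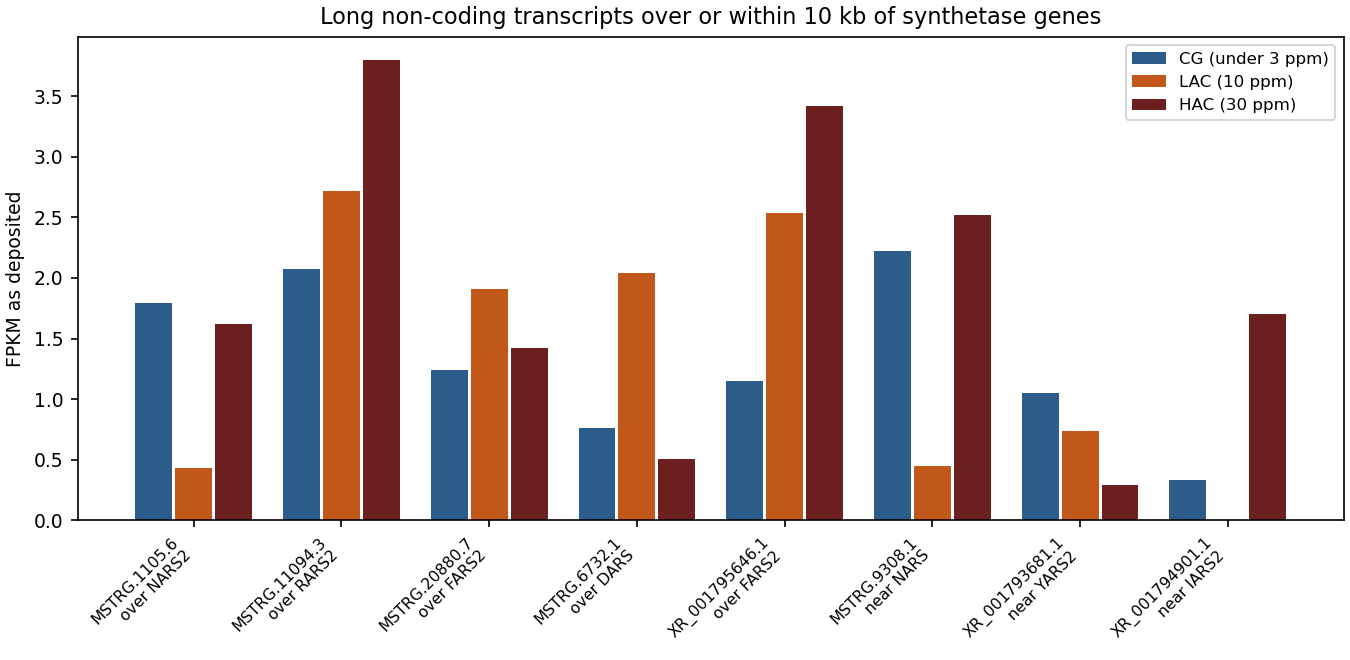
FPKM, as deposited, of long non-coding transcripts over or within 10 kb of a synthetase gene that reach 1 FPKM, in CG, LAC and HAC; each bar is 1 library. MSTRG.9308.1 near NARS and MSTRG.1105.6 over NARS2 are lower in LAC than in CG and HAC, and MSTRG.6732.1 over DARS is higher.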

How the data were processed

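Total RNA of 3 libraries (CG, LAC, HAC) was measured. Reads were handled with fastp and HISAT2 on OryCun2.0, per the submitters' processing notes; no source used here names the counter. The authors deposited an estimated count and an FPKM value per assembled locus, normalised by the authors, and coverage (signal) and FPKM per long non-coding transcript. The deposited estimated count equals coverage times transcript length over 75, which for 150-base reads makes 1 count about 0.5 of a read. The intervals use the counts so halved and take reads as independent, so they are too narrow if paired reads share a fragment. The exact binomial 95% intervals cover counting error only.

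Counts of the main RefSeq coding row of each gene were scaled by TMM over all loci (trims of 30% and 5%). A pseudocount of 1 CPM was added before log2. Values were computed in Python 3.11.15 with pandas 2.3.3, numpy 2.4.6 and SciPy 1.17.1, and the scaling was checked on simulated data. The simulated libraries had as many raised as lowered genes, unlike LAC and CG, so that check does not cover a shift in composition. Detected means a mean of at least 0.5 CPM. Of 12 per-sample columns, 2 were not used (HAC's gene values, which repeat LAC's). With 1 library per group no test was run. The alternatives tried were other scalings, pseudocounts, FPKM, detection minimums and size bounds. Members, lists and this plan were chosen with earlier results of these data known. Values are given for genes past the bound, the 3 most different in each direction and the 2 with most reads in each compartment, and for the same in lists; other genes were named after their values were seen. No genome of this build was used here, so no sequence is shown. 1 mitochondrial gene is counted in the sets but not reported singly here.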

Additional observations from a re-analysis of the deposited data

How the results depend on the processing

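No paired analysis was possible because each group has 1 library. Scaling on coding genes alone raised the log2 ratio of LAC to CG by 0.18 before the pseudocount, and so by less in the differences of low genes; the median of coding genes was then 0.01. The cytosolic median was then -0.16, against -0.33, and it was -0.40 from the deposited FPKM. TARS and YARS2 were lower by 1 or more in all 7 settings of scaling, pseudocount and unit, and NARS in 5 of 7. Over those settings 18 genes stayed below 0, 10 above 0 and 6 (AARS, FARSB, IARS, SARS2, TARS2 and WARS) changed sign. With a bound of 0.5 the synthetases lower in LAC numbered 7 (20.6%), and the partner genes 38 lower (29.0%) and 7 higher (5.34%), where coding genes had 28.1% lower and 8.18% higher. With a bound of 2 the synthetases numbered 0, and the partner genes 2 lower and 0 higher, where coding genes had 2.48% lower and 0.315% higher. The pairs with the cytosolic enzyme higher were 5 of 17 with the added loci. Partner genes higher in LAC numbered 3 with a pseudocount of 0.1 CPM and 0 with 5 CPM. Comparisons of non-coding transcripts past the bound, 2 over the 7 transcripts and 3 library pairs, numbered 3 with FPKM divided by the library factors. They numbered 6 with a pseudocount of 0.1 FPKM, 0 with at least 5 FPKM, and 6 over 18 transcripts with those within 10 kb added. The cause of these shifts was not tested. With 1 library a group, depth limits only counting error, and the spread between animals is unknown.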
